A study of Sus scrofa with 2 samples.

Results

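The interferon response and MHC genes are the transcripts of the deposited tables whose symbol is IRF7 or MAVS or begins with SLA-, or whose best protein match names an interferon, a histocompatibility or MHC antigen, an oligoadenylate synthetase, Mx1 or Mx2, a guanylate-binding protein, a toll-like receptor, beta-2-microglobulin, an antigen peptide transporter or ISG15. Proteins named interferon-related developmental regulator were left out. The rule used names and no measured value, but it was chosen with earlier results of these data known. It found 72 of the 12535 transcripts with a read in either library. They were grouped by what their names say into 11 MHC class I entries, 9 MHC class II entries, 25 interferon-stimulated genes, 16 interferons, receptors and regulatory factors, 9 sensors and adaptors, and 2 entries matched by name only.

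RNA-seq was done on biceps femoris muscle of newborn piglets cloned by somatic cell nuclear transfer and sampled on day 1 after birth. The abnormal cloned group was 1 library from the pooled RNA of 3 piglets with a large tongue, difficulty in standing and walking, or acromphalus, which is a protrusion at the navel. The normal cloned group was 1 library from pooled RNA of normal cloned piglets, given as 3 piglets in the sample labels and as 4 in the study's methods. All 3 abnormal and 2 of the normal piglets came from embryonic fibroblasts of a male large white pig, and the other 2 normal piglets from ear fibroblasts of another male. Donor animal and phenotype therefore cannot be told apart for any gene, and for the SLA genes, many of which vary strongly between pigs, a difference in allele and a difference in RNA level cannot be told apart either, since only reads mapping uniquely with at most 2 mismatches were counted. The sources name no treatment of either group, and neither was compared with piglets that were not cloned.

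Interferons are secreted after viral nucleic acid is recognised by toll-like receptors in endosomes or by cytoplasmic sensors such as IFIH1, which signals through the adaptor MAVS. Receptor signalling through JAK kinases, STAT2 and IRF9 then switches on a set of antiviral genes, among them MX1, the OAS and IFIT families and IRF7, which in turn amplifies the production of interferon alpha. The MHC of the pig is called SLA, and its class I molecules present peptides from inside the cell and are made by nearly all nucleated cells, while class II molecules present ingested peptides and are made mainly by macrophages, dendritic cells and B cells, and both are raised by interferon gamma.

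Summed over the listed transcripts, the abnormal library held 6.38 M and the normal library 6.52 M uniquely mapped reads. A number of 3 reads, the limit that a count of 0 allows, came to 0.470 and 0.460 RPM (reads per 1 M unique reads). Mitochondrial transcripts took 36.0% and 46.1% of the reads. The muscle markers ACTA1, MYOD1 and MYOG were present in both libraries, with 6 of the 9 markers of that list not matched to an entry. A gene was called when the Audic-Claverie test on its reads gave a Benjamini-Hochberg FDR of at most 0.001 over all genes and the log2 ratio of RPKM (RPM per kilobase of transcript) between the abnormal and the normal group was at least 1 in size. This test compares 1 library with 1 library and not the conditions, there was no replicate check, and the 95% Wilson intervals given in parentheses cover counting error only.

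Most of the interferon-stimulated and MHC genes with usable depth had fewer reads in the abnormal cloned group. Of the 72 members, 14 (19.4%) were called lower in the abnormal cloned group, against 1.45% of all genes, and 1 member (1.39%) was called higher, against 12.0% of all genes. The lower calls were 1 class I entry, 4 class II genes, 7 interferon-stimulated genes, the regulatory factor IRF7 and the sensor-side gene PRKRA, with FDR values between 1.24e-67 and 2.51e-04. All 14 were also called lower by Fisher's exact test, which uses the same counts and likewise takes in counting error only. The exact test of edgeR, which must assume a variation between animals, called 0 members in either direction at 0.2 or 0.4. Over all genes it called 0.16% lower and 1.94% higher at 0.2, and 1 gene lower and 2 higher at 0.4. With so few calls over all genes, 0 members called carries little information on this group. A further 4 members passed the FDR threshold with a log2 ratio between -1 and 0, the SLA-11-like entry, the IFI16-like entry, LOC100519082 and IRF9. All 4 were called lower under median-ratio rescaling, together with GBP2 and IFI44, which brought the lower calls to 20 of 72 against 3.97% of all genes.

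**Figure D1:**
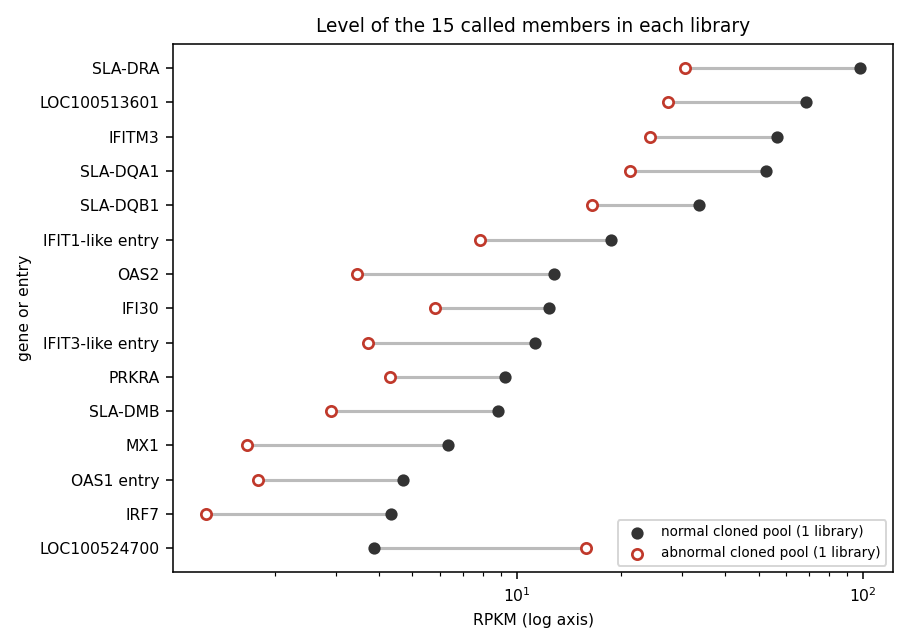
RPKM (log axis) of the 15 called members, 1 gene or entry per line, in the normal cloned library (filled points) and the abnormal cloned library (open points), joined by a grey bar. For 14 of them the open point lies to the left of the filled point, from SLA-DRA at 30.7 against 98.5 RPKM down to IRF7 at 1.26 against 4.33 RPKM, and only LOC100524700 lies the other way.

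Depth set how many members could be read at all. In 41 of the 72 members the libraries together held at least 20 reads, and 31 of these 41 (75.6%) had a log2 ratio below 0, with a median log2 ratio of -0.90. Over all 8140 genes with that many reads, 31.1% were below 0 and the median log2 ratio was 0.39. The other 31 members had under 20 reads, and 6 of them were read in the abnormal library alone and 9 in the normal library alone, each with at most 3 reads. At these counts no difference was detectable. Because the median log2 ratio of the 7493 genes that had 10 or more reads in each library was 0.36, values below 0 lie further below the bulk of the genes than below 0.

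**Figure D2:**
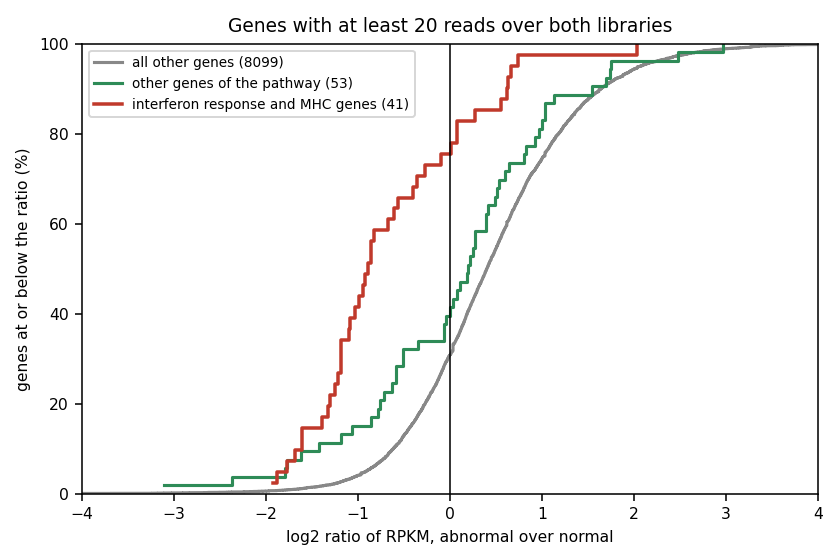
Cumulative share of genes (%) against the log2 ratio of RPKM (abnormal group over normal group) for genes with at least 20 reads over both libraries. The curve of the 41 interferon response and MHC genes lies to the left of the curve of the 8099 other genes, with medians of -0.90 and 0.40, and the 53 other genes of the pathway run closer to the latter with a median of 0.20.

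The MHC class II genes had the lowest log2 ratio of summed reads of the 6 groups, a rank that rested on SLA-DRA. Their 9 entries together held 571 reads in the abnormal pool against 1589 in the normal pool, or 89.5 and 244 RPM, a log2 ratio of -1.45 (-1.58 to -1.31). With the entry of most reads left out of each group, the class II sum was at -1.23 and the class I sum at -1.24. SLA-DRA (chr7:29095605-29101239 of Sscrofa9), the alpha chain of the DR molecule, had 252 reads in the abnormal pool against 827 in the normal pool. This was 30.7 against 98.5 RPKM, a 3.21-fold lower level with a log2 ratio of -1.68 (-1.89 to -1.48) and an Audic-Claverie FDR of 1.24e-67. Reads covered 93.5% of its transcript in the abnormal pool and 94.6% in the normal pool, so that nearly the whole transcript was seen in both.

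Both chains of the DQ molecule were called lower as well. The alpha chain SLA-DQA1 had 159 and 402 reads in the abnormal and normal libraries, or 21.2 and 52.6 RPKM, with a log2 ratio of -1.31 (-1.57 to -1.04). The beta chain SLA-DQB1 had 130 and 271 reads, or 16.5 and 33.7 RPKM, with a log2 ratio of -1.03 (-1.33 to -0.73). SLA-DQB1 lay just past the threshold of 1, and it was not called when 1 was added to every RPKM.

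SLA-DMB, a chain of the DM molecule that loads peptide onto class II, was the fourth class II gene called lower. It had 26 reads in the abnormal pool against 81 in the normal pool, or 2.90 and 8.85 RPKM, with a log2 ratio of -1.61 (-2.24 to -0.98). Reads covered 50.5% of its transcript in the abnormal pool against 79.5% in the normal pool. The other 5 class II entries, among them SLA-DMA and SLA-DOB, had at most 4 reads in either library and carry no information on a difference. CIITA, the master activator of class II genes, was near the detection limit in both libraries with 4 and 3 reads, while its partner RFX5 had 27 and 21 reads.

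The MHC class I entries were lower in sum as well. Summed over 11 entries they had 983 reads in the abnormal pool against 2051 in the normal pool, or 154 and 315 RPM, a log2 ratio of -1.03 (-1.14 to -0.92). Only 1 of the 11 was called lower, and all 5 with at least 20 reads had a log2 ratio below 0. That entry, LOC100513601 (chr7:24459993-24463671), matched a class I alpha chain and had 294 and 753 reads in the abnormal and normal libraries. Its level was 27.3 against 68.5 RPKM, 2.51-fold lower, with a log2 ratio of -1.33 (-1.52 to -1.13) and an Audic-Claverie FDR of 1.91e-43.

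The entry matching SLA-11 (ENSSSCG00000001341) held the most reads of all members. It had 627 reads in the abnormal pool against 1194 in the normal pool, or 49.9 and 93.0 RPKM, with a log2 ratio of -0.90 (-1.04 to -0.76). Its FDR of 8.42e-37 passed, but the ratio stayed short of the threshold of 1, so it was not called. The class I genes SLA-3, SLA-7 and SLA-6 were at 1.90, 2.47 and 1.54 RPKM in the abnormal and 3.36, 3.18 and 2.79 RPKM in the normal library, and none passed the FDR threshold. The remaining 6 class I and class I-related entries, including SLA-8 and MIC-2, had at most 8 reads in either library.

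Unique reads reached unequal parts of the class I transcripts, which resemble one another closely. They covered 94.9% of the SLA-11-like transcript in the abnormal pool against 95.3% in the normal pool, but 28.9% and 29.6% of LOC100513601 and 4.32% and 4.21% of SLA-3. The reads of such entries come from the stretches that tell them apart, so their RPKM and the order of class I genes by level are uncertain. The share covered was almost equal between the libraries in each of these entries although the read number was not. A pair of Ensembl entries whose matches name SLA-3/2 and SLA-2/2, and which the rule's words did not find, were looked at after their values were seen. They had log2 ratios of -0.95 (-1.25 to -0.65) and -0.59 (-0.78 to -0.40), and neither was called.

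**Figure D3:**
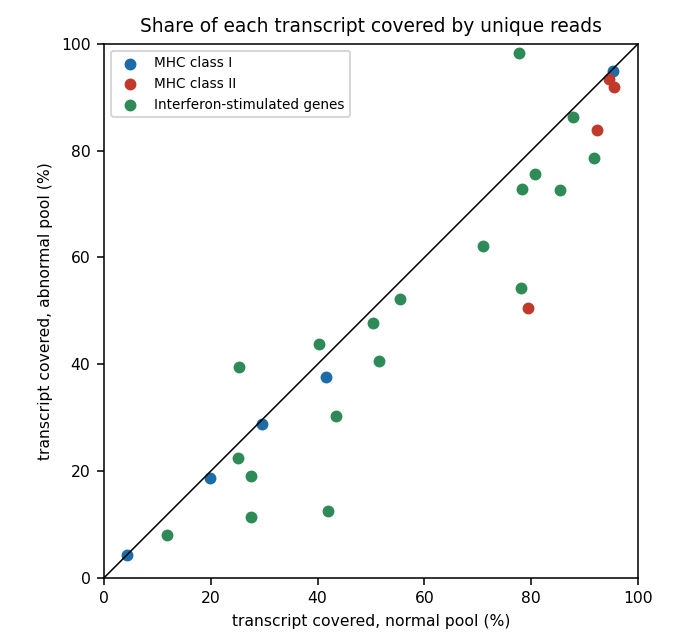
Share of each transcript covered by unique reads (%) in the normal (horizontal) and abnormal (vertical) library, for the MHC class I, class II and interferon-stimulated entries with at least 20 reads over both libraries, with the line of equal coverage. Class I entries such as SLA-3 (4.21% and 4.32%) and the SLA-11-like entry (95.3% and 94.9%) lie on the line at very different heights, SLA-DMB (79.5% and 50.5%) lies well below it, and LOC100524700 (77.8% and 98.2%) well above it.

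The MHC genes lie together on chromosome 7, which allowed a look at their neighbours. Between positions 24377123 and 29558418 of Sscrofa9, 19 MHC members were listed, with 1553 reads in the abnormal pool against 3637 in the normal pool, a log2 ratio of -1.20 (-1.28 to -1.11). The 85 other genes in this interval, the pair named for SLA-2 and SLA-3 left out, had 10985 and 9763 reads with a log2 ratio of 0.20 (0.16 to 0.24). Of these neighbours 0 were called in either direction by the Audic-Claverie test, against 1.45% called lower and 12.0% called higher over all genes. The lack of lower calls is close to the share over all genes, and only the lack of higher calls lies below it. The 41 neighbours with at least 20 reads had a median log2 ratio of 0.06, between that of the MHC members and that of all genes.

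Among the interferon-stimulated genes, 7 of 25 were called lower and 1 higher. Summed, they had 1306 reads in the abnormal pool against 2519 in the normal pool, or 205 and 387 RPM, a log2 ratio of -0.92 (-1.01 to -0.82). Of the 19 with at least 20 reads, 17 had a log2 ratio below 0. The exceptions were LOC100524700 and the entry matching IFIT2, which had 17 and 11 reads and was not called.

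MX1 (chr13:144402767-144424140), a dynamin-like GTPase that blocks virus replication, had the lowest log2 ratio among the members with at least 20 reads. It had 26 reads in the abnormal pool against 101 in the normal pool, or 1.66 and 6.32 RPKM, 3.80-fold lower with a log2 ratio of -1.93 (-2.54 to -1.31). Unique reads covered only 19.15% of its transcript in the abnormal pool and 27.51% in the normal pool. Its neighbour MX2 had 39 and 48 reads, or 2.28 and 2.75 RPKM, with a log2 ratio of -0.27 (-0.87 to 0.34), and was not called. The intervals of the pair do not overlap, and whether their ratios differ was not tested.

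The oligoadenylate synthetases make a second messenger that sets off the breakdown of RNA. OAS2 (chr14:39137444-39149442) had 48 reads in the abnormal pool against 181 in the normal pool, or 3.47 and 12.8 RPKM, 3.69-fold lower with a log2 ratio of -1.88 (-2.34 to -1.43) and an Audic-Claverie FDR of 9.54e-18. Unique reads covered only 22.51% of its transcript in the abnormal pool and 25.05% in the normal pool, so its RPKM rests on part of the transcript. The OAS1 entry, next to it on chromosome 14, had 28 and 75 reads, or 1.79 and 4.69 RPKM, with a log2 ratio of -1.39 (-2.01 to -0.77). OAS1 and OAS2 were thus both called lower, while OASL had 1 read in all.

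IFIT proteins bind foreign RNA and hold back its translation, and 4 entries of the family lie between positions 106101816 and 106166847 of chromosome 14. Together they had 166 reads in the abnormal pool against 358 in the normal pool, a log2 ratio of -1.08 (-1.34 to -0.81). The IFIT1-like entry had 71 and 173 reads, or 7.83 and 18.7 RPKM, with a log2 ratio of -1.25 (-1.65 to -0.86), and was called lower. The entry whose protein match is IFIT3 carries the symbol IFIT1 in the reference names, so which gene it is remains uncertain. It had 35 and 109 reads, or 3.71 and 11.3 RPKM, with a log2 ratio of -1.61 (-2.15 to -1.06), and was called lower too. The IFIT5-like entry at 4.66 and 6.90 RPKM and the IFIT2-like entry at 1.91 and 1.21 RPKM were not called, so the neighbouring genes of this cluster did not all share the call.

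IFITM3 (chr2:139950786-139952115), a membrane protein that hinders the entry of viruses, had 107 reads in the abnormal pool against 255 in the normal pool. This was 24.2 and 56.6 RPKM, 2.33-fold lower with a log2 ratio of -1.22 (-1.55 to -0.90) and an Audic-Claverie FDR of 1.93e-13. The IFITM1-like LOC100519082, from the same stretch of chromosome 2, had 179 and 363 reads, or 18.1 and 36.0 RPKM, and its log2 ratio of -0.99 (-1.25 to -0.73) fell just outside the threshold. IFITM1 itself, whose match the rule's words did not find and which was looked at after its value was seen, had 76 and 245 reads and was called lower with a log2 ratio of -1.66 (-2.03 to -1.29). IFITM genes are short and alike, so the share of each in the reads of the family is uncertain.

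IFI30, a lysosomal thiol reductase that prepares proteins for class II presentation, had 39 reads in the abnormal pool against 85 in the normal pool, or 5.82 and 12.4 RPKM, with a log2 ratio of -1.09 (-1.64 to -0.55). It was called lower, and the call was lost when 1 was added to every RPKM. The guanylate-binding protein GBP2, a GTPase of the defence against intracellular microbes, had 42 and 83 reads with a log2 ratio of -0.95 (-1.48 to -0.42), and it was not called. The IFI16-like entry, named for a DNA sensor, had 414 and 675 reads with a log2 ratio of -0.67 (-0.85 to -0.50), and PSME1, a subunit of the proteasome activator, had 116 and 157 reads with a log2 ratio of -0.41 (-0.75 to -0.06). Neither was called, although the reads of both were numerous.

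The rest of the interferon-stimulated genes held few reads. IFI44, an antiviral gene of unsettled mechanism, had 33 and 64 reads with a log2 ratio of -0.92 (-1.53 to -0.32). The GTPase genes GBP1 (Ensembl entry), GBP4 and GVIN1 (its best-read entry) had 9 and 21, 6 and 14, and 9 and 21 reads, and each had a log2 ratio of -1.19 without a call. The remaining 6 entries had at most 3 reads in either library.

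LOC100524700 was the single member called higher. This short transcript of 396 bases (chr9:114108686-114109081), matched to a bovine protein named interferon alpha responsive, had 40 reads in the abnormal pool against 10 in the normal pool. Its level was 15.8 against 3.88 RPKM, 4.09-fold higher, with a log2 ratio of 2.03 (1.05 to 3.01) and an Audic-Claverie FDR of 8.68e-05. Median-ratio rescaling and TMM each ended this call.

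**Figure D4:**
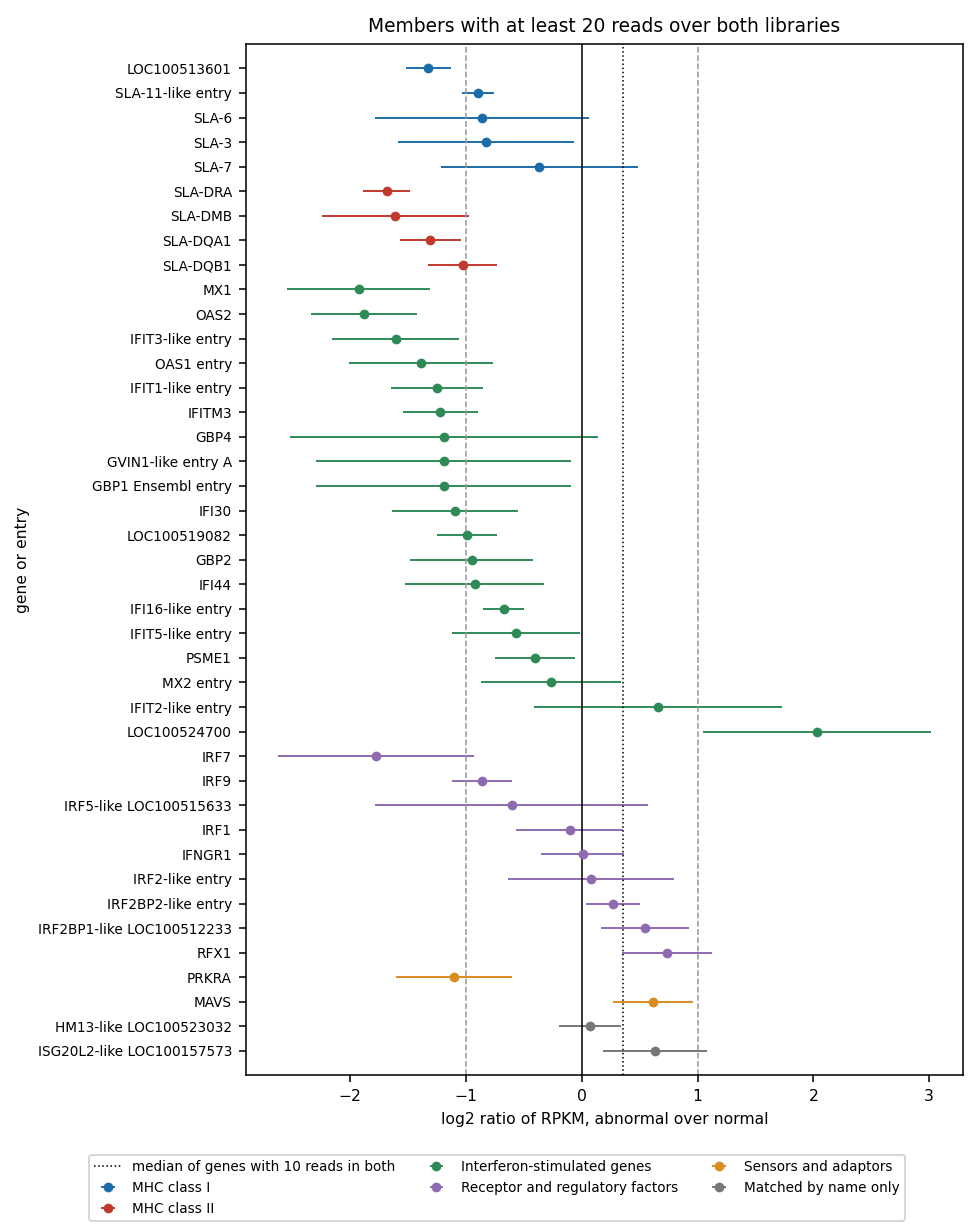
Log2 ratio of RPKM (abnormal over normal) and its 95% counting interval, for the members with at least 20 reads over both libraries, coloured by group and ordered by ratio within it. Dashed lines mark ratios of 1 and -1, the solid line marks 0 and the dotted line the median of 0.36 of genes that had 10 or more reads in each library. All class I and class II points lie left of 0, interferon-stimulated genes do so but for IFIT2-like and LOC100524700, and the regulatory factors and sensors fall on both sides.

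The regulatory factors had similar sums in both libraries. Their 16 entries had 1029 reads in the abnormal pool against 1092 in the normal pool, or 161 and 168 RPM, a log2 ratio of -0.05 (-0.18 to 0.07). The sum hid values in both directions, with 4 of the 9 entries of at least 20 reads below 0. The entries for IRF2BP2, IRF2BP1 and RFX1, with 322 and 273, 133 and 93, and 137 and 84 reads, lay above 0. IRF7 (chr2:291676-294411), the factor that amplifies interferon alpha and is itself interferon-induced, was the 1 entry called lower. It had 14 reads in the abnormal pool against 49 in the normal pool, or 1.26 and 4.33 RPKM, 3.43-fold lower with a log2 ratio of -1.78 (-2.62 to -0.93), and reads covered 33.8% and 75.5% of its transcript. IRF9, the DNA-binding subunit of the complex with STAT2, had 182 and 338 reads, or 18.0 and 32.7 RPKM. Its log2 ratio of -0.86 (-1.12 to -0.60) passed the FDR threshold at 2.89e-10 but not the threshold of 1.

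The other factors of the group were not called. IRF1, an activator of MHC class I and other interferon gamma targets, had 71 and 78 reads, or 5.36 and 5.76 RPKM, with a log2 ratio of -0.10 (-0.57 to 0.36). IFNGR1, the ligand-binding chain of the interferon gamma receptor, had 122 and 124 reads, or 12.5 RPKM in both libraries, with a log2 ratio of 0.01 (-0.35 to 0.37). Its sign turned negative under each of the 4 rescalings, as did that of the IRF2BP2-like entry under the median ratio and TMM. The IRF2-like entry had 31 and 30 reads, and the factor IRF5 had 9 and 14. The entries for IRF2BP2 and IRF2BP1, co-repressors that bind IRF2, had log2 ratios of 0.27 (0.04 to 0.50) and 0.55 (0.17 to 0.93), and RFX1, a factor that binds the X box of class II promoters, had 0.74 (0.35 to 1.13), all without a call.

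The interferons themselves were at or below the limit of detection. Of 6 interferon entries, IFN-DELTA-2 had 2 reads in each library, and IFN-DELTA-4, IFN-OMEGA-3, IFN-ALPHA-16 and IFNG had 1 read in the abnormal library against 0 in the normal one, which allows up to 0.460 RPM. LOC100154912, matched to an interferon omega, had 0 reads in the abnormal pool against 2 in the normal pool. No direction can be read from these counts.

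Sensors and adaptors also had similar sums, with 236 reads in the abnormal pool against 240 in the normal pool, or 37.0 and 36.8 RPM, and a log2 ratio of 0.01 (-0.25 to 0.27) that became -0.35 under median-ratio rescaling. The sum hid opposite values of its most abundant members. MAVS, the mitochondrial adaptor of the RNA sensors, had 165 reads in the abnormal pool against 110 in the normal pool, or 20.7 and 13.5 RPKM, with a log2 ratio of 0.62 (0.27 to 0.96), and was not called. PRKRA, which activates the RNA-dependent kinase PKR, had 46 and 101 reads, or 4.31 and 9.27 RPKM, and was called lower with a log2 ratio of -1.10 (-1.60 to -0.60). The PRKRA call was lost when 1 was added to every RPKM.

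The toll-like receptors were sparse in this muscle. TLR4, the receptor for bacterial lipopolysaccharide, had 10 reads in the abnormal pool against 3 in the normal pool, and TLR2, TLR5, TLR7 and TLR9 had at most 6 reads in either. The RNA sensor IFIH1 was listed as an overlapping pair of entries, with 6 and 7 reads in the Ensembl entry and 0 and 3 in the other. None of these was called.

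A pair of members matched the rule by words of their names alone. HM13, a minor histocompatibility antigen that acts as a signal peptide peptidase, had 227 and 221 reads with a log2 ratio of 0.07 (-0.20 to 0.34), and its sign turned negative under the 4 rescalings. ISG20L2, a nucleolar exonuclease, had 100 and 66 reads with a log2 ratio of 0.63 (0.18 to 1.08). Neither was called.

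Other genes of the pathway, taken from a list of 97 symbols of which 66 entries were found, were called in both directions. The calls were 5 of 66 lower and 8 of 66 higher, against 1.45% and 12.0% of all genes. The higher calls thus came at about the share of all genes. Under median-ratio rescaling the split changed to 8 lower and 3 higher, against 3.97% and 6.48% of all genes. The 5 lower calls are genes known to be induced by interferon. RSAD2, the antiviral enzyme viperin, had 5 reads in the abnormal pool against 44 in the normal pool with a log2 ratio of -3.11 (-4.40 to -1.82). DHX58, a regulator of the RNA sensors, had 7 and 37 reads with a log2 ratio of -2.37 (-3.51 to -1.24), and USP18, a protease that removes ISG15 from proteins and dampens receptor signalling, had 11 and 39 reads with a log2 ratio of -1.80 (-2.74 to -0.85). HERC5, a ligase that attaches ISG15, had 18 and 63 reads with a log2 ratio of -1.78 (-2.52 to -1.03), and DTX3L, a ubiquitin ligase of the interferon response, had 13 and 41 reads with a log2 ratio of -1.63 (-2.51 to -0.74). All 5 stayed called lower under the 4 rescalings, but these lower every log2 ratio and so could not bring one back above -1. The edgeR test called RSAD2 alone at an assumed variation of 0.2 and none of the 5 at 0.4.

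Of the 8 higher calls, 7 were genes of the signalling chain. JAK1, a kinase bound to interferon receptors, had 191 and 89 reads with a log2 ratio of 1.13 (0.77 to 1.49). JAK2, its partner at the interferon gamma receptor, had 60 and 19 reads with a log2 ratio of 1.69 (0.95 to 2.43). The subunits of the kinase complex that releases NF-kB were called higher as well. Their log2 ratios were 1.54 (1.10 to 1.97) for IKBKG, 2.47 (1.34 to 3.61) for CHUK and 2.97 (1.32 to 4.61) for IKBKB, the last from 23 against 3 reads. IRAK1 and TANK, which relay signals from toll-like and other receptors, had log2 ratios of 1.74 (1.35 to 2.12) and 1.03 (0.56 to 1.50). Under median-ratio rescaling and TMM only IRAK1, IKBKG and CHUK of these were still called. STAT2 was not called, with 55 and 58 reads.

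Of the 18 antigen processing entries, 14 had at least 20 reads, and 4 of these 14 had a log2 ratio below 0. Their median log2 ratio was 0.25, and the reads of the 18 entries summed to 5656 and 5082, a log2 ratio of 0.19 (0.13 to 0.24). There was no lower call and 1 higher call, the chaperone calnexin (CANX), with 525 and 262 reads and a log2 ratio of 1.03 (0.82 to 1.25), a call that median-ratio rescaling ended. PSME3, the activator of the nuclear proteasome, had 313 and 164 reads with a log2 ratio of 0.96 (0.69 to 1.24) and was not called. The protease cathepsin S (CTSS), which trims the chain that blocks class II, had 42 and 78 reads with a log2 ratio of -0.86 (-1.40 to -0.32), and each of the 4 rescalings called it lower. PSME2, the partner of PSME1, had 199 and 306 reads with a log2 ratio of -0.59, and tapasin (TAPBP), which holds class I molecules at the peptide transporter, had 138 and 180 reads with a log2 ratio of -0.35. The immunoproteasome subunit PSMB9 had 3 and 7 reads and the transporter subunit TAP2 had 1 and 2. B2M, TAP1 and ISG15 were not analysed here.

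In bulk muscle, fewer cells of a type and less RNA per cell cannot be told apart, so leukocyte markers are given beside the class II genes. Only the macrophage, dendritic cell and B cell markers among them stand for the main makers of class II named above. The markers of leukocytes, macrophages, dendritic cells, T, B and NK cells that were found, 17 of 25, had together 322 reads in the abnormal pool against 435 in the normal pool. This was 50.5 and 66.8 RPM, a log2 ratio of -0.40 (-0.61 to -0.20), with 12 of 17 entries below 0 and 0 called by the Audic-Claverie test. Their sum was thus lower in the abnormal cloned group, as that of the class II genes was, but by a smaller ratio, and their part in the class II, class I and interferon-stimulated results was not tested. Rescaling shifts members and markers by the same amount.

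Single markers varied around this sum. PTPRC, which codes for the leukocyte antigen CD45, had 5 reads in the abnormal pool against 22 in the normal pool. Of the macrophage and dendritic cell markers 8 of 10 were found, with 256 and 333 reads, a log2 ratio of -0.35 (-0.58 to -0.11), in which CSF1R had 95 and 91 reads but AIF1 had 19 and 44. FCER1G, with 45 and 82 reads, TYROBP, with 26 and 47, and CD14, with 21 and 37, had log2 ratios of -0.83, -0.82 and -0.79. MRC1, with 34 and 19 reads, and ITGAM, with 15 and 10, had log2 ratios above 0. In all, 5 of the 8 macrophage and dendritic cell entries lay below 0 and 3 above it. Of the T, B and NK cell markers 7 of 10 were found, with 33 and 45 reads, and among them the B cell marker CD79A had 8 reads in each, CD8A and ZAP70 had 0 in the abnormal pool and CD3D had 0 in the normal pool. Endothelial markers, 7 of 8 found, summed to 2604 and 2632 reads, a log2 ratio of 0.02 (-0.06 to 0.09), with KDR at 297 and 181 reads and PECAM1 at 627 and 699. Fibroblast markers, 6 of 7 found, had a log2 ratio of -0.15 (-0.18 to -0.13).

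**Figure D5:**
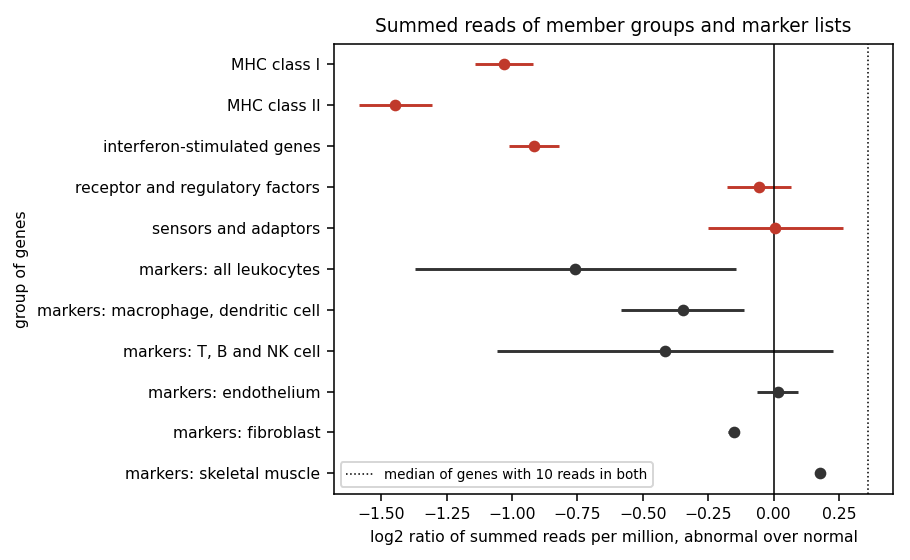
Log2 ratio of summed RPM, abnormal over normal, with 95% counting intervals, for the groups of members (red) and the marker lists of cell types (black), with a dotted line at the median of 0.36 of genes that had 10 or more reads in each library. MHC class II (-1.45), class I (-1.03) and interferon-stimulated genes (-0.92) lie below every marker list in their point values, the lowest of which is the leukocyte list at -0.76 (-1.37 to -0.14), and regulatory factors and sensors lie near 0.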

How the data were processed

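Total RNA of biceps femoris muscle was pooled within each group, poly(A) RNA was selected, and 1 library per group was sequenced. The authors filtered out adaptors and reads of low quality, mapped the rest to Sscrofa9 transcripts with SOAPaligner/soap2 (version not given in the sources used here) and deposited, for every transcript with a read, the count of unique reads, its RPKM, its length and the percent of it covered. The deposited RPKM is the count per kilobase of transcript and per 1 M reads of the library total. Both tables were joined on the gene identifier, and a transcript listed in one table only was given a count of 0 in the other. The sources used here state no use of strand, so overlapping entries are uncertain.

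Log2 ratios are of RPKM in the abnormal over that in the normal group, and 0.001 stood in for an RPKM of 0. The Audic-Claverie test, two-sided by doubling, was applied to the counts with Benjamini-Hochberg adjustment over the 12535 genes, after the thresholds of the study's methods. It was checked on simulated counts that held counting error only, which cannot show how it behaves with variation between animals. Symbols were matched to RefSeq names (assembly Sscrofa11.1) for 54 of the 72 members, and coordinates are those of Sscrofa9 in the tables. The members, their groups and the gene lists were chosen with earlier results of these data known. Genes named are every called member, the 5 members with the most reads in each group, B2M, TAP1, TAP2, IRF7, MAVS, ISG15, MX1 and MX2 where listed, and called genes of the pathway list; others were named after their values were seen, to account for every group. Rescaling by the median ratio, TMM, totals without mitochondrial transcripts or equal GAPDH, the exact tests of Fisher and of edgeR, a pseudocount of 1, a minimum of 10 reads in both libraries and an FDR of at most 0.05 were tried as alternatives. Python 3.11.15, numpy 2.4.6, pandas 2.3.3, scipy 1.17.1, matplotlib 3.10.9, R 4.3.3 and edgeR 4.0.16 were used. Some genes of the lists are not reported here.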

Additional observations from a re-analysis of the deposited data

How the results depend on the processing

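No paired analysis was possible because each group was 1 library, and for the same reason no replicate could be left out. Rescaling by the median ratio of genes, by TMM factors, to totals without mitochondrial transcripts and to equal GAPDH lowered all log2 ratios by 0.36, 0.39, 0.25 and 0.21. All 14 members called lower were called lower under these 4 settings, which called 20, 20, 19 and 19 members lower. Since each setting lowered every ratio, none could bring a ratio back above -1, so the kept lower calls are no check. The count called higher was 0 under the median ratio and TMM. Over all genes the calls went from 182 lower and 1510 higher to 498 lower and 812 higher under the median ratio. In the same order of settings the summed log2 ratio was -1.39, -1.42, -1.28 and -1.24 for MHC class I, -1.81, -1.84, -1.69 and -1.66 for class II and -1.28, -1.31, -1.16 and -1.13 for interferon-stimulated genes. Without their most abundant entry these sums were -1.24, -1.23 and -1.02. The sensor sum, 0.01, became -0.35 under the median ratio, -0.39 under TMM and -0.84 without MAVS. Values close to 0 changed sign: IFNGR1 to -0.35, -0.39, -0.24 and -0.21, the HM13-like entry to -0.29, -0.32, -0.18 and -0.14, and the IRF2BP2-like entry to -0.090 and -0.12 under the median ratio and TMM.

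The edgeR exact test, which has no replicates here and takes an assumed variation, called 0 members lower and 0 higher at 0.2 and at 0.4. Over all genes it called 20 lower and 243 higher at 0.2, and 1 lower and 2 higher at 0.4. On the pathway list it called 1 lower and 0 higher at 0.2, and 0 and 0 at 0.4. The pathway list went from 5 lower and 8 higher to 8 lower and 3 higher under the median ratio and TMM, to 7 and 4 under totals without mitochondrial transcripts and under equal GAPDH, to 4 and 5 with a pseudocount of 1, to 3 and 6 with a minimum of 10 reads and to 9 and 11 at an FDR of at most 0.05. A pseudocount of 1 left 11 members called lower, without SLA-DQB1, IFI30 and PRKRA. A further pair of alternatives was chosen after seeing the data: without the MHC entries 9 of 52 members were called lower and 1 higher, and without overlapping or same-named entries 14 of 67. At this depth 31 of the 72 members had under 20 reads over both libraries.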
